A study of Mus musculus with 14 samples.

Results

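The genes described here are 8 enzymes that make, break down or interconvert proline, asparagine, glutamine and glutamate. They were taken by name from the 53735 gene symbols of both count tables, and all 8 were measured in every heart and passed the low-count filter at both times. RNA was sequenced from the hearts of male C57BL/6 mice about 10 weeks (late) or about 5 weeks (early) after tamoxifen. Knockout hearts (cKO) had the genotype Fam210afl/fl, alphaMHCMCM/+, and control hearts had alphaMHCMCM/+, so every mouse carried the tamoxifen-inducible Cre that the Myh6 promoter drives in cardiomyocytes. There were 3 cKO and 3 control hearts late, when cardiac function was described as strongly impaired, and 4 cKO and 4 control hearts early, when it was described as normal. For early cKO replicate 4 the labels disagree: the title says knockout and the genotype field has the control alleles. It was kept as a knockout here. Other cell types of these hearts keep Fam210a, and ages of the animals are not given in the labels. Each library is called a heart here, though whether libraries come from different animals is not stated.

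Proline is made from glutamate in mitochondria. Aldh18a1 turns glutamate into pyrroline-5-carboxylate, and Pycr1 reduces that intermediate to proline. Prodh oxidises proline back to the same intermediate, Aldh4a1 returns it to glutamate, and Oat links it to ornithine. Asns makes asparagine from aspartate and glutamine, Glul makes glutamine from glutamate and ammonia, Glud1 interconverts glutamate and 2-oxoglutarate, and Gpt2 exchanges the amino group between glutamate and alanine in mitochondria. Asns, Aldh18a1 and Pycr1 are known targets of ATF4, a transcription factor that cells make during the integrated stress response. Mitochondrial damage is a known trigger of that response in muscle.

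The synthesis enzymes Asns, Pycr1 and Aldh18a1 were higher in cKO hearts at both times, and the breakdown enzyme Prodh was not. Late, 6 of the 8 enzymes rose (Asns, Pycr1, Aldh18a1, Glul, Glud1 and Gpt2) and 2 fell (Oat and Prodh). Early, 3 rose (Asns, Pycr1 and Aldh18a1), none fell, and 5 did not pass the test. A gene was called at an adjusted p under 0.05 over all tested genes in edgeR. By that rule 65% of the 14942 genes tested late were called (31.8% higher, 33.2% lower), and 0.613% of the 13529 genes tested early (0.517% higher, 0.0961% lower). Being called late therefore set these enzymes little apart, and the sizes are given with each. Among the 4 synthesis genes (Aldh18a1, Pycr1, Asns, Glul) the median log2 fold change was 4.16 late and 1.72 early. Among the 4 genes of breakdown or interconversion (Oat, Prodh, Glud1, Gpt2) it was 0.12 late and -0.08 early. Over all genes tested it was -0.02 late and 0.00 early. Both sets were mixed: Glul was at -0.19 early, and the 0.12 spans 2 rises and 2 falls. The enzymes were chosen with earlier results of these data known, so the medians are a description and carry no test.

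**Figure D1:**
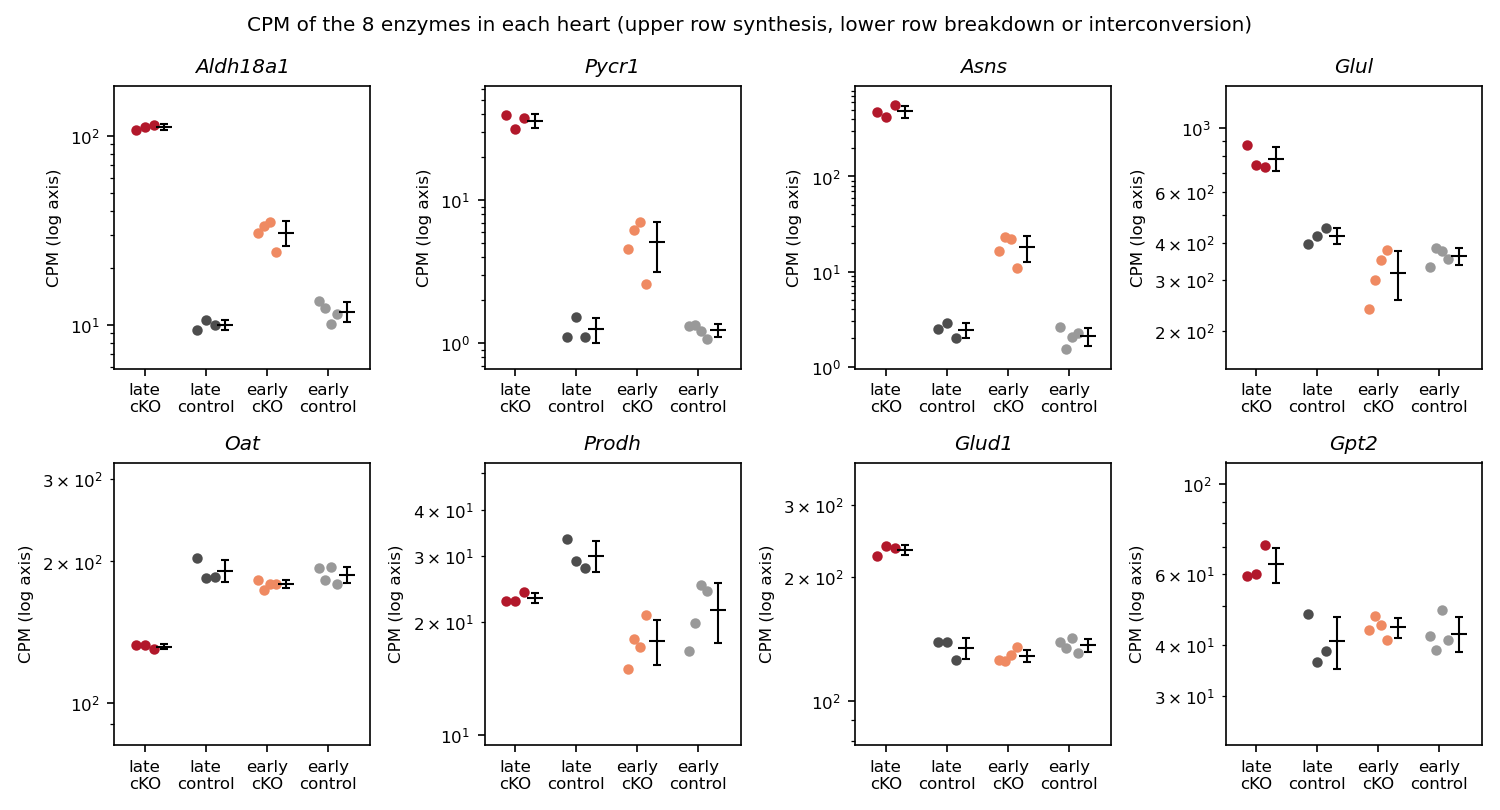
Normalised expression (CPM, counts scaled to library size, log axis) of each enzyme in every heart, with 1 point per heart and the group mean ± SD beside it (late cKO n = 3, late control n = 3, early cKO n = 4, early control n = 4). Asns, Pycr1 and Aldh18a1 lie above all controls in both cKO groups, while Oat and Prodh lie below their controls in the late cKO group.

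The targeted gene and the make-up of the hearts were checked first. Late, Fam210a averaged 66.8 ± 3.41 CPM (counts scaled to library size) in the cKO group, against 128 ± 7.27 CPM in the control group (SD, n = 3 each; log2 fold change -0.94, adjusted p = 6.5e-05). Early it averaged 146 ± 10.2 CPM in the cKO group, against 170 ± 6.04 CPM in the control group (SD, n = 4 each; log2 fold change -0.22, adjusted p = 0.17), and the groups did not overlap. Library totals were 29989076 to 35750964 counts late and 15657298 to 19466469 early. Among late cKO hearts, replicate 3 was the most distant: its counts differed from the other pair by 107 and 101 (chi-square averaged over genes), and that pair differed by 21.5. All 7 cardiomyocyte markers were detected in every heart. Late, 1 rose and 3 fell, beside 31.8% higher and 33.2% lower among all genes tested. Their summed level was 51100 to 60470 CPM in late cKO and 61990 to 72000 CPM in late control hearts. The markers did not move together. Mb, Myl2 and Tnni3 were lower in every late cKO heart than in any late control. Myh6 and Actn2 were higher in every one, and Tnnt2 and Ryr2 overlapped. Mb had 1768 to 2348 CPM in late cKO and 10150 to 13930 CPM in late control hearts. Myh6 had 29540 to 34780 CPM in late cKO and 26550 to 28840 CPM in late control hearts. Early the summed level was 52710 to 56410 CPM in cKO and 58290 to 65430 CPM in control hearts.

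Markers of other cells moved with the late comparison, in which 33.2% of all tested genes fell and 31.8% rose. Of 7 macrophage markers 6 fell, with sums of 152 to 187 CPM in cKO and 320 to 328 CPM in control hearts. Of 6 endothelial markers 5 fell, with sums of 419 to 538 CPM in cKO and 867 to 1071 CPM in control hearts. Of 6 fibroblast markers 3 fell, with sums of 758 to 1074 CPM in cKO and 1203 to 1596 CPM in control hearts. Of 4 smooth muscle markers Myh11, Tagln and Cnn1 fell, with a list median log2 fold change of -1.35. Acta2 alone rose, to 993 to 1881 CPM in cKO hearts, against 173 to 227 CPM in control hearts, and it made up most of the summed level of 1066 to 1937 CPM in cKO and 308 to 425 CPM in control hearts. No marker of these 4 lists was at 0 in any late heart. Of 5 atrial markers Nppa rose late, at 1734 to 2623 CPM in cKO and 93.8 to 566 CPM in control hearts, and it made up most of sums of 1751 to 2890 CPM in cKO and 131 to 948 CPM in control hearts. Bmp10 was called lower, but that call rests on late control replicate 3. Bmp10 had 0, 0.0943 and 104 CPM in late controls, against 0.421, 0.483 and 0.754 CPM in late cKO hearts. Control replicate 3 was also the highest late control for Myl7, Myl4 and Sln, which did not pass. The list median was -0.82, with Sln in cKO and Bmp10 in control hearts at 0 in at least 1 heart. Of 5 adipocyte markers Adipoq fell late, 3 did not pass and 1 had too few counts. The Adipoq call rests on few counts, 14, 1 and 3 in cKO and 4, 48 and 34 in control hearts, and the groups overlapped. Adipocyte sums late were 0.0569 to 4.72 CPM in cKO and 0.944 to 18.4 CPM in control hearts, with Plin1, Retn and Cfd at 0 in at least 1 late cKO heart. No marker passed early, where 0.613% of all tested genes did. Early cKO replicate 2 had the highest early atrial sum, 1480 CPM, against a median of 194 CPM in early cKO hearts and at most 334 CPM in early controls, and Sln and Bmp10 were at 0 in at least 1 early heart of each group. Early adipocyte sums were 1.77 to 15.2 CPM in cKO and 0.356 to 2.03 CPM in control hearts, with Adipoq and Retn at 0 in at least 1 early control. The part of these shifts in the results below was not tested, and in whole hearts fewer cells of a type and less RNA per cell cannot be told apart.

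Sequence before the gene start is shown for the 3 enzymes that were higher in cKO hearts at both times, since ATF4 is known to bind, with C/EBP partners, an element that holds TGATGNAA. The windows are 150 bases ending 1 base before the RefSeq start (GRCm38.p6), on the gene's strand, and capitals mark a match.
Asns, chr6:7693210-7693359, minus strand: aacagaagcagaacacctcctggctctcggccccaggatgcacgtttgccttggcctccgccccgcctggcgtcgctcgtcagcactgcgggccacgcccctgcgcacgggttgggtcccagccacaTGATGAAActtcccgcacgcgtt
Pycr1, chr11:120643749-120643898, minus strand: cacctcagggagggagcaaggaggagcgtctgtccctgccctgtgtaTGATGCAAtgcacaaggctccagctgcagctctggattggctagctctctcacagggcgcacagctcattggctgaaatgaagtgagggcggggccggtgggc
Aldh18a1, chr19:40588464-40588613, minus strand: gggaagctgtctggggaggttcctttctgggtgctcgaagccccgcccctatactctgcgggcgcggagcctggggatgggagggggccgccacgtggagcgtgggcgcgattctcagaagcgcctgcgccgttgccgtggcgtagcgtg
The motif was searched on both strands of the full RefSeq window, 250 bases before to 50 after the start. It was found in Asns, 23 to 16 bases before the start, and in Pycr1, 103 to 96 bases before it. The windows of Aldh18a1, Glul, Oat, Prodh, Glud1 and Gpt2 did not hold these letters. Of the 13033 windows of genes tested late, 2.3% held the motif, and of all 32851 windows 3.97%. A match describes letters only.

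Aldh18a1, the entry step of proline synthesis, rose at both times. The gene lies on chromosome 19 from 40550257 to 40588463 (GRCm38). Late, its level was 107, 112 and 114 CPM in the cKO hearts, against 9.38, 10.6 and 9.99 CPM in controls. Early it was 30.7, 33.1, 34.8 and 24.2 CPM in the cKO hearts, against 13.3, 12.2, 10.1 and 11.4 CPM in controls. The groups did not overlap at either time, and the lowest early cKO heart was replicate 4. The log2 fold change was 3.48 late (SE 0.12, adjusted p = 1.5e-07) and 1.39 early (SE 0.12, adjusted p = 0.000152). That placed it 244th from the top of 14942 genes late and 36th of 13529 early.

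Pycr1, the mitochondrial reductase that completes proline synthesis, was low in controls and rose more than Aldh18a1 in size. The gene lies on chromosome 11 from 120635712 to 120643769. Late, it had 39.5, 31.7 and 37.5 CPM in the cKO hearts, against 1.11, 1.54 and 1.11 CPM in controls. Early it had 4.56, 6.19, 7.03 and 2.6 CPM in the cKO hearts, against 1.32, 1.34, 1.22 and 1.07 CPM in controls. The early control values rest on 18 to 22 counts per heart. The groups did not overlap, and replicate 4 was again the lowest early cKO heart. The rise was 28.8-fold late (adjusted p = 2.34e-07) and 4.14-fold early (adjusted p = 0.00646).

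Pycrl, whose product catalyses the same reduction in the cytosol, also rose late. Per kilobase of exon, it stood at 13.7 ± 3.05 CPM per kb in late cKO hearts, against 6.95 ± 0.718 CPM per kb in late controls (SD, n = 3 each). Pycr1 stood at 9.2 ± 1.03 CPM per kb in late cKO hearts, against 0.318 ± 0.0634 CPM per kb in late controls. Which stands higher in late cKO hearts rests on the exon length used, 3935 bases for Pycr1 and 1339 for Pycrl. Before that division Pycr1 averaged 36.2 CPM and Pycrl 18.3 CPM in those hearts. The log2 fold change of Pycrl was 0.98 late (SE 0.18, adjusted p = 0.00105) and 0.24 early (adjusted p = 0.431), and the early value did not pass.

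Prodh, which opens proline breakdown, fell late by a small amount. It lies on chromosome 16 from 18060357 to 18090203. Late it had 22.8, 22.7 and 24 CPM in the cKO hearts, against 33.4, 29.1 and 27.9 CPM in controls, with no overlap. The log2 fold change was -0.38 (SE 0.12, adjusted p = 0.0172), and 71.2% of genes tested late had a larger absolute value. The call was lost without late cKO replicate 1 or 2 or late control replicate 1 or 2 (adjusted p 0.0506 to 0.0888). Early it had 15, 18.1, 17.2 and 21 CPM in the cKO hearts, against 16.8, 19.9, 25.2 and 24.2 CPM in controls, and the groups overlapped (log2 fold change -0.27, adjusted p = 0.508). Prodh overlaps Dgcr6 on the other strand without sharing annotated exon bases, and Dgcr6 was 0.82 higher in late cKO hearts (SE 0.25, adjusted p = 0.0166). The next breakdown enzyme, Aldh4a1, fell more clearly late, to 22.4 ± 2.85 CPM in the cKO group, against 85.6 ± 11.6 CPM in the control group (SD, n = 3 each; log2 fold change -1.93, SE 0.15, adjusted p = 6.93e-06). Early, Aldh4a1 was at -0.13 and did not pass (adjusted p = 0.53).

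Set against each other within a heart, the opening enzymes of synthesis and breakdown stood in opposite order in late cKO and late control hearts. The ratio of Aldh18a1 to Prodh, each per kilobase of exon, was 9.03, 9.41 and 9.13 in late cKO hearts, against 0.537, 0.694 and 0.686 in late controls. In early cKO hearts it was 3.91, 3.51, 3.88 and 2.21, against 1.52, 1.18, 0.765 and 0.901 in early controls. The groups did not overlap at either time. On this scale Prodh was above Aldh18a1 in every late control, and Aldh18a1 was above Prodh in every cKO heart of both times. A ratio within a library does not depend on the scaling between libraries. Which gene stands higher does depend on the exon length used, 7797 bases for Prodh and 4072 for Aldh18a1. The transcripts present in these hearts were not determined.

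**Figure D2:**
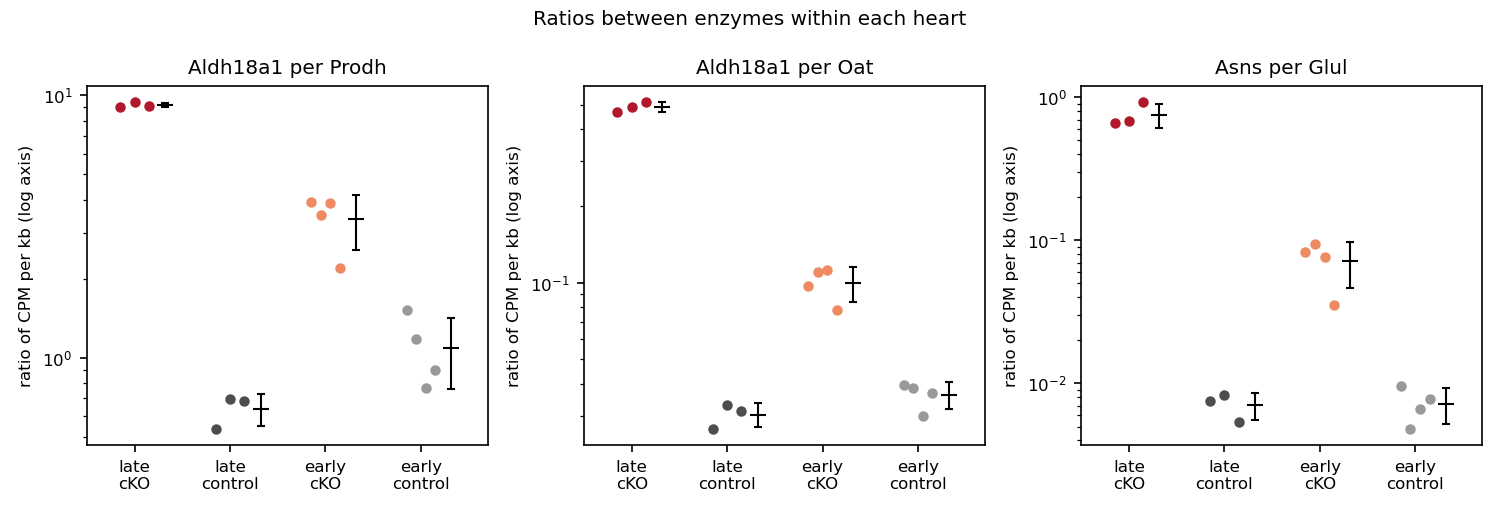
Ratios within each heart from CPM per kilobase of exon: Aldh18a1 over Prodh, Aldh18a1 over Oat, and Asns over Glul (all log axes). Points are hearts and bars are the mean ± SD (n = 3 per late group and 4 per early group); the late cKO hearts lie highest in all 3 panels and no cKO group overlaps its controls.

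Oat, the mitochondrial enzyme between ornithine and pyrroline-5-carboxylate, fell late. It lies on chromosome 7 from 132557478 to 132576398. The late cKO hearts had 132, 133 and 130 CPM, against 203, 185 and 185 CPM in controls, with no overlap (log2 fold change -0.54, SE 0.10, adjusted p = 0.00154). Early it had 174 to 183 CPM in cKO hearts and 179 to 194 CPM in controls, and the groups overlapped (log2 fold change -0.07, adjusted p = 0.706). Among the late cKO hearts Oat varied by a SD of 1.56 CPM around a mean of 132 CPM. Per kilobase, Aldh18a1 stood at 0.489 ± 0.0205 of Oat in late cKO hearts and 0.0304 ± 0.00329 in late controls (SD, n = 3 each).

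Asns, which makes asparagine, had the largest change of the 8 at both times. It lies on chromosome 6 from 7675169 to 7693254. Late, the cKO hearts had 474, 418 and 559 CPM, against 2.48, 2.89 and 2.01 CPM in controls. Early, the cKO hearts had 16.3, 23.2, 21.9 and 11 CPM, against 2.63, 1.53, 2.05 and 2.25 CPM in controls. The groups were far apart late, and early the lowest cKO heart, replicate 4, was still above every control. The log2 fold change was 7.62 late (SE 0.21, adjusted p = 1.02e-07) and 3.09 early (SE 0.25, adjusted p = 8.41e-05). It ranked 34th from the top of all genes tested late and 4th early. With early cKO replicate 4 counted as a control, as its genotype field has it, the early value was 2.38 (adjusted p = 0.0177).

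Glul, which makes glutamine, rose late, and its early value did not pass. It lies on chromosome 1 from 153899944 to 153909723 and shares 116 exon bases with Teddm2 on the other strand, a gene with at most 168 counts in any heart. Late, the cKO hearts had 869, 745 and 735 CPM, against 399, 423 and 451 CPM in controls, with no overlap. The log2 fold change was 0.88 (SE 0.12, adjusted p = 0.000225), and 41.1% of the genes tested late had a larger absolute value. Early, the cKO hearts had 238, 300, 349 and 378 CPM, against 331, 385, 377 and 353 CPM in controls, and the groups overlapped (log2 fold change -0.19, SE 0.12, adjusted p = 0.612).

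The amide-forming enzymes thus differed widely in size of change. Asns per Glul, on the scale per kilobase, was 0.662, 0.682 and 0.923 in late cKO hearts, against 0.00754, 0.0083 and 0.00541 in late controls. In early cKO hearts it was 0.0833, 0.094, 0.0761 and 0.0353, against 0.00966, 0.00483, 0.00662 and 0.00776 in early controls. On this scale, which rests on the exon length used for each gene, Glul remained the higher of the pair in every heart.

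Glud1 and Gpt2, the mitochondrial enzymes between glutamate and 2-oxoglutarate, rose late by similar amounts. Glud1 lies on chromosome 14 from 34310727 to 34345265 and had 226, 238 and 236 CPM in late cKO hearts, against 139, 139 and 126 CPM in late controls. Its log2 fold change was 0.79 (SE 0.11, adjusted p = 0.000174), and 45.5% of genes tested late had a larger absolute value. Early it had 125 to 135 CPM in cKO hearts and 131 to 142 CPM in controls, which overlapped (log2 fold change -0.09, adjusted p = 0.612). Gpt2 lies on chromosome 8 from 85492576 to 85527560 and had 59.3, 59.9 and 70.5 CPM in late cKO hearts, against 47.8, 36.3 and 38.7 CPM in late controls. Its log2 fold change was 0.63 (SE 0.14, adjusted p = 0.00347), and 54.4% of genes tested late had a larger absolute value. Early it had 41.1 to 47.3 CPM in cKO hearts and 38.9 to 48.8 CPM in controls (log2 fold change 0.05, adjusted p = 0.885). In number, groups without overlap were 8 of the 8 enzymes late, where 69.8% of tested genes had none (34% higher, 35.9% lower), and 3 of the 8 early, where 5.65% had none (2.98% higher, 2.68% lower).

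**Figure D3:**
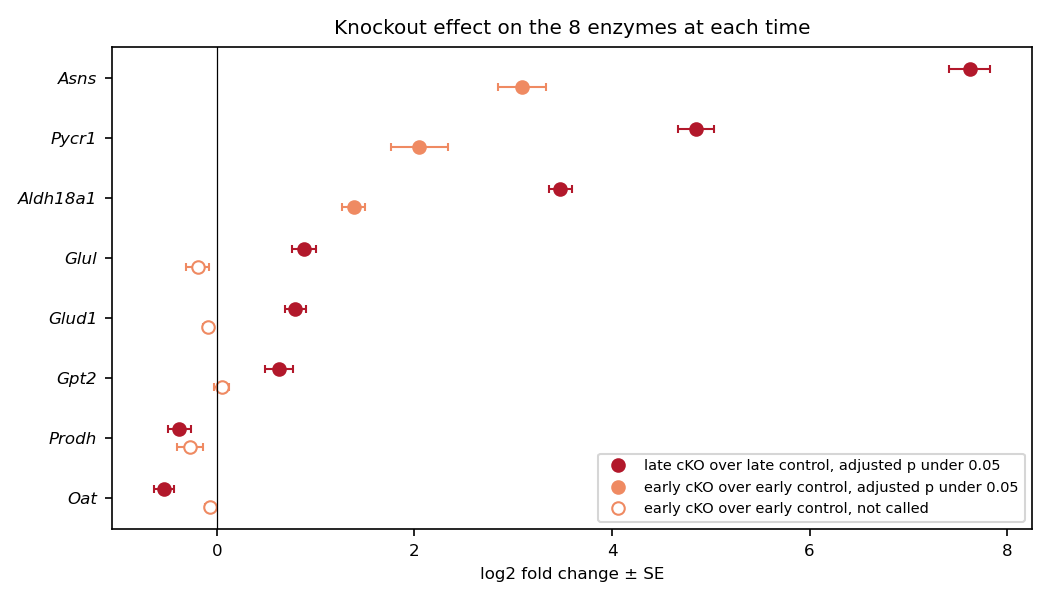
Log2 fold change ± SE of each enzyme, late cKO over late control and early cKO over early control, from edgeR. Filled points passed an adjusted p of 0.05 and open points did not; Asns, Pycr1 and Aldh18a1 are filled at both times, with the late value the larger for each.

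The order of the enzymes by level differed between the groups. Per kilobase of exon, late cKO hearts had Glul highest at 236 ± 22.5 CPM per kb, then Asns at 177 ± 25.9 and Oat at 55.8 ± 0.662. Glud1 followed at 55.4 ± 1.58, Aldh18a1 at 27.3 ± 0.875, Gpt2 at 11.2 ± 1.12, Pycr1 at 9.2 ± 1.03 and Prodh at 2.97 ± 0.0936 CPM per kb (SD, n = 3). The ranges of Oat and Glud1 overlapped, and those of the other neighbours in this order did not. In late controls the order was Glul at 128 ± 7.95 CPM per kb, Oat at 80.9 ± 4.47, Glud1 at 32 ± 1.87 and Gpt2 at 7.26 ± 1.08. Prodh followed at 3.87 ± 0.375, Aldh18a1 at 2.45 ± 0.145, Asns at 0.899 ± 0.161 and Pycr1 at 0.318 ± 0.0634 CPM per kb (SD, n = 3), with no overlap between neighbours. Asns was 2nd of the 8 in late cKO hearts and 7th of the 8 in late controls. Ranks between genes rest on the exon length used for each, and the change of a gene between groups does not.

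The knockout effect differed between the times for 7 of the 8 enzymes, by the genotype-by-time contrast over all 14 hearts, in which 61.2% of 14555 tested genes were called (29.8% higher, 31.3% lower). Of the 7, Oat had the lower late effect and 6 the higher. Asns changed most, by 4.55 more on the log2 scale late than early (SE 0.36, adjusted p = 4.37e-08). Pycr1 differed by 2.81 (SE 0.39, adjusted p = 1.54e-05) and Aldh18a1 by 2.11 (SE 0.17, adjusted p = 3.6e-08). For Prodh the contrast was -0.09 (SE 0.19, adjusted p = 0.697), and it did not pass. Each time point is a table of its own with its own depth, so an effect of time cannot be told apart from one of the table. Levels were compared within a time only.

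Of 5 listed genes of the stress response (Atf4, Atf5, Ddit3, Cebpb and Trib3), 4 rose late and 3 early, and none fell. Among all tested genes, 31.8% were higher and 33.2% lower late, and 0.517% were higher and 0.0961% lower early. Atf4 stood at 594 ± 115 CPM in late cKO hearts and 79.2 ± 6.39 CPM in late controls (SD, n = 3 each), and the early log2 fold change was 0.64 (SE 0.08, adjusted p = 0.00495). Atf5, a factor related to Atf4, rose by 3.24 late (SE 0.17, adjusted p = 1.06e-06) and 1.82 early (SE 0.12, adjusted p = 2.08e-05). Trib3, a pseudokinase that ATF4 induces, rose by 5.26 late (SE 0.24, adjusted p = 5.17e-07) and 1.84 early (adjusted p = 0.0106; 0.0527 without early control replicate 3). Ddit3, a factor of the same response, rose by 2.08 late (SE 0.22, adjusted p = 4.73e-05). It was at -0.28 early and did not pass (adjusted p = 0.4).

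Other enzymes of these pathways were called in both directions late. Of 41 tested genes from 47 listed, 15 rose and 9 fell late, with a median log2 fold change of 0.08, beside 31.8% higher and 33.2% lower among all genes tested late. Of 38 tested early 2 rose and none fell, beside 0.517% higher and 0.0961% lower among all genes tested early. The early rises were Psat1, an aminotransferase of serine synthesis, and Ctps, which uses glutamine to make CTP. Ctps lay at the threshold early (log2 fold change 0.36, SE 0.07, adjusted p = 0.0496). Its early call was lost without any single early heart other than cKO replicate 4 (adjusted p 0.0692 to 0.183). It was also lost with RLE size factors (0.0508), the replicate block (0.111) and all 14 libraries in 1 fit (0.206). Counting early cKO replicate 4 as a control lost it too (0.068).

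Around aspartate, 4 of 8 tested genes rose late and none fell, beside 31.8% higher and 33.2% lower among all genes tested late. Got1, the cytosolic aspartate aminotransferase, rose to 1766 ± 21.1 CPM in late cKO hearts, against 845 ± 89.2 CPM in late controls (SD, n = 3 each; log2 fold change 1.06, SE 0.13, adjusted p = 8.55e-05). Its mitochondrial counterpart Got2 stood at 510 ± 7.03 CPM in late cKO hearts and 616 ± 57.5 CPM in controls and did not pass (log2 fold change -0.27, adjusted p = 0.0647). The adenylosuccinate synthases Adssl1 and Adss, which use aspartate to make AMP, rose by 1.29 (SE 0.14, adjusted p = 5.67e-05) and 0.92 (SE 0.11, adjusted p = 9.4e-05). Asl, which releases fumarate from argininosuccinate, rose by 0.62 (SE 0.14, adjusted p = 0.00394).

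Among the aminotransferases, 2 of 6 tested genes rose late and 3 fell, beside 31.8% higher and 33.2% lower among all genes tested late. The 2 alanine aminotransferases moved in opposite directions. Gpt, the cytosolic alanine aminotransferase, fell to 12.9 ± 3.1 CPM in late cKO hearts, against 46.2 ± 11 CPM in controls (SD, n = 3 each; log2 fold change -1.84, SE 0.21, adjusted p = 7.81e-05), while its mitochondrial counterpart Gpt2 rose. Bcat1, the cytosolic branched-chain aminotransferase, rose to 21.6 ± 1.45 CPM in late cKO hearts, against 1.15 ± 0.181 CPM in controls (log2 fold change 4.23, SE 0.17, adjusted p = 2.74e-07). The mitochondrial Bcat2 stood at -0.37 and did not pass (adjusted p = 0.0629). Psat1 rose by 7.16 late (SE 0.21, adjusted p = 1.02e-07) and 2.01 early (SE 0.21, adjusted p = 0.00106). Ccbl2, a kynurenine aminotransferase, fell by 0.64 late (SE 0.12, adjusted p = 0.00153). The third fall was Ccbl1, a related enzyme, at -0.36 (adjusted p = 0.0461). Its call was lost in DESeq2 (adjusted p = 0.0787), with RLE size factors (0.0654), with the replicate block (0.123), and without late cKO replicate 1 or 2 or late control replicate 1 or 2 (0.0888 to 0.196).

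**Figure D4:**
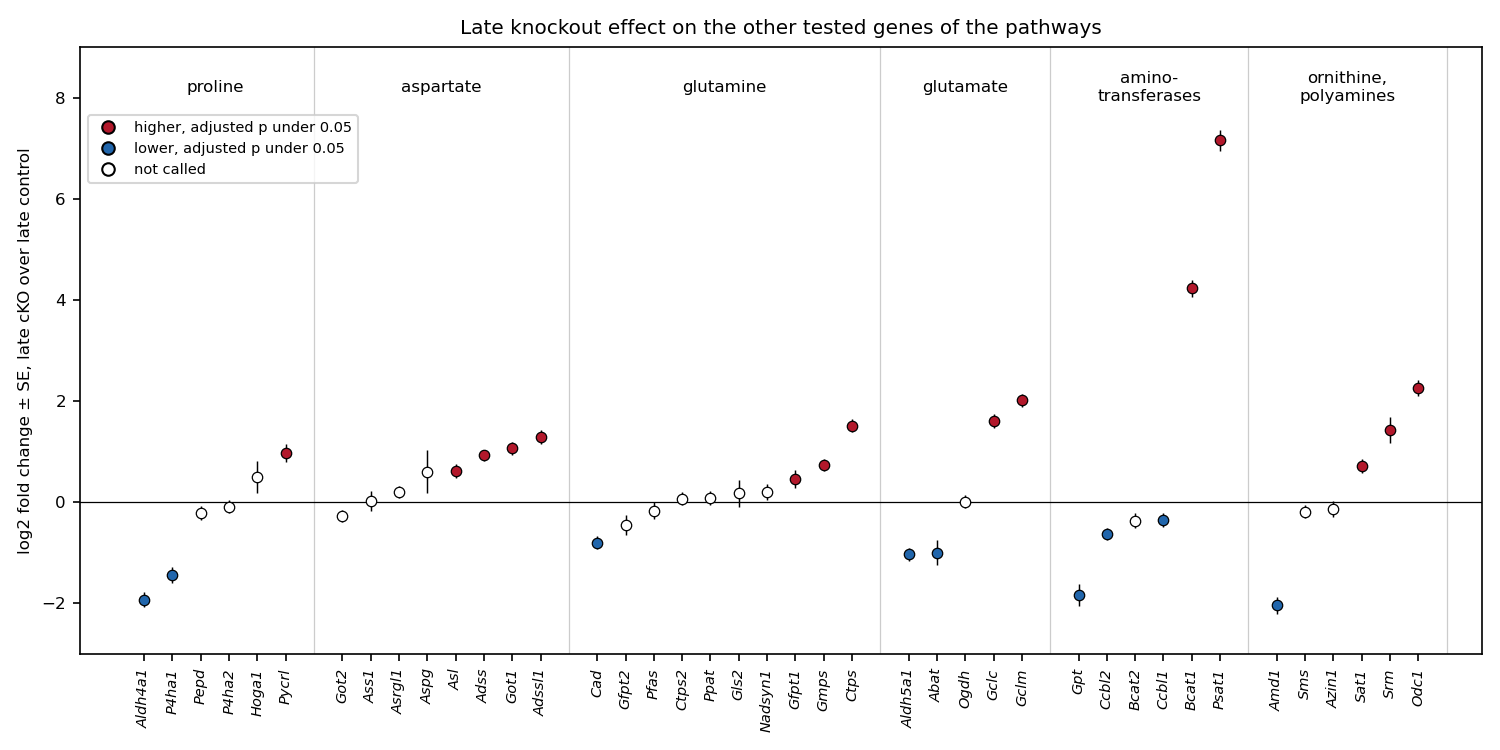
Log2 fold change ± SE, late cKO over late control, of the 41 other tested genes. The groups are proline, aspartate, glutamine, glutamate, aminotransferases, and ornithine with polyamines. Red points rose and blue points fell at an adjusted p under 0.05 in edgeR, and white points were not called; Psat1 and Bcat1 lie highest, and Amd1, Aldh4a1 and Gpt lie lowest.

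Of 10 tested users or splitters of glutamine, 3 rose and 1 fell late, beside 31.8% higher and 33.2% lower among all genes tested late. Ctps rose by 1.51 (SE 0.13, adjusted p = 1.45e-05) and Gmps, which makes GMP, by 0.73 (SE 0.12, adjusted p = 0.000522). Gfpt1, which uses glutamine to make hexosamines, was called at 0.46 (SE 0.17, adjusted p = 0.0433) with overlapping groups. Its call was lost with the replicate block (adjusted p = 0.0863), and without late cKO replicate 1 or 2 or late control replicate 1 or 2 (0.0642 to 0.155). Cad, which starts pyrimidine synthesis, fell by 0.80 (SE 0.13, adjusted p = 0.000454). Of 5 tested users of glutamate, the glutathione synthesis genes Gclm and Gclc rose late, 4.03-fold (adjusted p = 2.67e-06) and 3.04-fold (adjusted p = 1.27e-05). Aldh5a1 and Abat, which degrade 4-aminobutyrate, fell to 0.487 (adjusted p = 0.000134) and 0.499 (adjusted p = 0.00669) of the control level.

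Of 6 tested genes around ornithine, 3 rose and 1 fell late, and none passed early. Shares over all tested genes were 31.8% higher and 33.2% lower late, and 0.613% called early. Odc1, which turns ornithine into putrescine, stood at 243 ± 43.1 CPM in late cKO hearts and 51 ± 2.6 CPM in late controls (SD, n = 3 each; log2 fold change 2.25, SE 0.15, adjusted p = 3.53e-06). Srm, the spermidine synthase, rose by 1.43 (SE 0.26, adjusted p = 0.00113) and Sat1, which acetylates spermidine and spermine, by 0.71 (SE 0.14, adjusted p = 0.00193). Amd1, which supplies the aminopropyl groups and has a close copy, Amd2, that could share its reads, fell to 17.3 ± 1.11 CPM in late cKO hearts, against 71.3 ± 16.3 CPM in controls (log2 fold change -2.04, SE 0.17, adjusted p = 1.13e-05). The arginases Arg1 and Arg2 had too few counts to be tested. Of 6 further proline genes tested late, Pycrl rose, Aldh4a1 and P4ha1 fell, and 3 did not pass, among them Pepd, which frees proline from dipeptides (log2 fold change -0.22, adjusted p = 0.181). P4ha1, a prolyl hydroxylase of collagen, was at 18.2 ± 2.88 CPM in late cKO hearts, against 49.7 ± 6.42 CPM in the control group (SD, n = 3 each; log2 fold change -1.45, SE 0.15, adjusted p = 4.64e-05).

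The genes most alike in pattern were found by Pearson correlation of log2 CPM over the 14 hearts, each centred on the control mean of its own table, among 12561 protein-coding genes. The hearts fall into groups, so these values mostly reflect differences between groups and carry no test. Asns and Aldh18a1 were each other's nearest gene (r = 0.997), and Pycr1 was among the 3 nearest of both (r = 0.994). Oat was closest to Etfdh, Tmem129 and Hibadh (r = 0.994 each), Glud1 to Zfp408 (0.995), Fam214b (0.994) and Ddx24 (0.993), and Gpt2 to Txnl1 (0.994), Mmadhc (0.980) and Parl (0.978). Likeness was weaker for Glul, with Slc10a6 (0.967), Sfpq (0.966) and Ppfia1 (0.964), and weakest for Prodh, with Adh1 (0.899), Zfand1 (0.883) and Gpr160 (0.860).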

How the data were processed

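The authors deposited whole-number read counts per gene symbol, in 1 table per time point, with no normalization that the values show. Per the labels' protocols, libraries were made from 100 ng of total RNA with oligo-dT selection and a kit that does not mark strand, and were sequenced from 1 end for 100 nt. The submitters' processing notes list Trimmomatic 0.36, STAR 2.6.0c and build GRCm38. The counting tool is not given in the sources used here. From these counts, edgeR 4.0.16 (R 4.3.3) gave quasi-likelihood tests after TMM scaling, and p-values were adjusted by Benjamini-Hochberg over all tested genes. Low genes were removed by filterByExpr, with a minimum count of 10 and a minimum total of 15. Each time was fitted alone, and the genotype-by-time contrast over all 14 libraries. SE is the log2 fold change over the square root of F. CPM uses TMM-scaled library sizes of the time's own table, and CPM per kb divides it by the merged exon length of GENCODE M21. Promoter windows are from RefSeq (GRCm38.p6), and all 8 enzymes matched by symbol. The fits were tested on simulated counts with known changes. Alternatives were DESeq2 1.42.0, RLE size factors, no filter, a replicate block, all libraries in 1 fit, each library left out, and early cKO replicate 4 left out or counted as a control. Some items are not reported here. The enzymes and gene lists were chosen with earlier results of these data known. Named pathway genes are up to 4 per list with the smallest late p, plus any called early. Got2, Bcat2, Ccbl1, Arg1, Arg2, Dgcr6 and Teddm2 stand outside that rule and were chosen after their values were seen. Whether libraries come from different animals is not stated, and p-values cover only the variation among these libraries, which may be technical. Within a group the chi-square per gene between libraries was 3.9 or more, so none was a copy of another.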

Additional observations from a re-analysis of the deposited data

Results flagged for a closer look

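By the genotype-by-time contrast in edgeR, 61.2% of 14555 tested genes were called (29.8% higher, 31.3% lower). The knockout effect differed between the 2 times for 7 of the 8 enzymes by that contrast (log2 fold change late minus early). It was 4.55 for Asns, 2.81 for Pycr1, 2.11 for Aldh18a1, 1.09 for Glul (SE 0.18, adjusted p = 7.72e-05), 0.90 for Glud1 (SE 0.10, adjusted p = 1.06e-06) and 0.59 for Gpt2 (SE 0.15, adjusted p = 0.00344). It was -0.45 for Oat (SE 0.09, adjusted p = 0.000605). For Glul and Glud1 the early value was below 0 and the late value above it, but neither early value passed (adjusted p = 0.612 for each). The times come from tables of different depth, so an effect of time cannot be told apart from one of the table. In the early groups of 4 hearts, no heart lay apart from the rest of its group in any of 16 enzyme and group pairs by Dixon's test at 0.829.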

How the results depend on the processing

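The early calls of Asns, Pycr1 and Aldh18a1, the late calls of the 8 enzymes other than Prodh and the 7 contrasts between times kept their direction and passed under every alternative run. For Asns, counting early cKO replicate 4 as a control gave an early value of 2.38 and a contrast of 5.26. The Prodh contrast, not called, turned to 0.013 without early control replicate 1 and ranged to -0.169 with other libraries left out. Of all genes early, DESeq2 called 127 higher and 50 lower, no filter 260 and 128, and the fit of all libraries 7 lower; with early cKO replicate 4 as a control, 65 were lower. Leaving out 1 library gave 39 to 115 higher and 4 to 66 lower: 115 and 66 without cKO replicate 4, 42 and 4 without cKO replicate 2, and 46 and 8, 39 and 7, and 39 and 6 without control replicates 2, 3 and 4. Of the other listed genes 3 to 5 were then called early, 3 without control replicate 3. Same-numbered hearts did not deviate together (correlations -0.498 to -0.0368). With deviations taken within groups of 3 or 4 hearts, these few values cannot exclude a pairing by number. The replicate block gave 63 higher and 15 lower early, 4008 and 4366 late, and Prodh did not pass late (adjusted p = 0.0721). Early, 1387 genes had an unadjusted p under 0.05. The early values of Pycr1 are limited by depth, at 18 to 22 counts in each control heart.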

Other observations

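Among the genes closest in pattern to the proline and asparagine enzymes was Vmn2r3, named for the vomeronasal receptor family (r = 0.996 with Pycr1, 0.995 with Aldh18a1 and 0.994 with Asns). It had 2326, 2372 and 2639 counts in late cKO hearts, against 0, 1 and 0 in late controls. Early it had 37, 44, 70 and 8 counts in cKO hearts, against 1, 0, 0 and 0 in controls. The receptor family has many similar copies, so reads may be shared among them, and the counting rule is not given in the sources used here. Extl1, the other gene nearest to Pycr1 (r = 0.996), rose as well, with log2 fold changes of 1.62 late (SE 0.11, adjusted p = 4.01e-06) and 0.65 early (SE 0.09, adjusted p = 0.00646).

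Of the early cKO hearts, replicate 4, whose genotype field gives the control genotype, was the lowest for Asns, Pycr1, Aldh18a1 and Vmn2r3 and was above every early control for each. It was the highest early cKO heart for Glul, Glud1 and Prodh. The TGATGNAA motif was also found in the promoter windows of Got1, 1 of 36 other pathway genes with a window, and of Trib3, 1 of the 5 stress-response genes.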
